A study of Mus musculus with 12 samples.

Results

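Prolactin is the milk hormone of the anterior pituitary, secreted by cells called lactotrophs. The 10 genes described here are *Prl* itself and genes grouped with it as local regulators, whose action on lactotrophs was not tested. They comprise the dopamine receptor gene *Drd2*, the dopamine-synthesising enzyme gene *Th*, the ovarian steroid receptor genes *Esr1* and *Pgr*, the peptide genes *Vip*, *Gal* and *Nmu*, and the vascular and matrix genes *Angpt1* and *Edil3*. These are 10 of the 19057 genes that the bead array names with a single symbol. Members were found by gene symbol, and a probe was kept where its detection p lay under 0.05 on at least 4 of 12 arrays. The 10 genes had 25 probes, of which 10 probes for 9 genes were kept. The 15 probes left out included the single *Th* probe.

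Each array held total RNA from the whole pituitary of 1 wild-type C57BL/6J female, and 8 Pregnant and 4 Non-pregnant females were studied. All were 8 weeks old when allocated at random to mating or to stay virgin. The Pregnant females were mated with males of the same strain and killed in late gestation (e15.5), and the Non-pregnant females were virgins. The 12 animals came from 4 litters, with littermates in both groups, but the litter of each animal and the stage of the oestrous cycle of the virgins were not given in the sources used here.

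Lactotrophs secrete prolactin unless restrained, and the main restraint is hypothalamic dopamine, which reaches them in the portal blood and acts on the D2 receptor. Oestrogen drives *Prl* transcription and lactotroph growth, and peptides such as vasoactive intestinal peptide and thyrotrophin-releasing hormone stimulate release. In rodents the placenta makes lactogens of the prolactin family from mid-gestation, which bind the prolactin receptor and feed back on the dopamine neurons.

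Between Pregnant and Non-pregnant glands, *Vip* rose by 1.67-fold and *Nmu* fell by 1.94-fold after background correction. Without that correction both log2 changes were smaller (*Vip* 0.515 against 0.738, *Nmu* -0.746 against -0.959). *Prl*, *Drd2*, *Esr1*, *Pgr*, *Gal*, *Angpt1* and *Edil3* were detected and were not called, and *Th* was not detected on any array. A probe was called where its change reached 1.25-fold and its adjusted p (limma, Benjamini-Hochberg over 18626 probes) was below 0.05. Thus 1 of the 10 member probes was called higher and 1 was called lower, where 1.22% and 1.1% of all probes tested were called in those directions (2.31% in either). *Nmu* kept its call in 20 of 21 alternative settings and *Vip* in 9 of 21. Because whole glands were used, fewer cells of a type and less RNA per cell cannot be told apart.

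The stretches directly before the transcription start of the 2 called genes and of *Prl* are shown because these are the genes on which the results turn. They are RefSeq sequences of GRCm38.p6, read 5′ to 3′ on the gene's strand, and each ends at the base before the annotated start. They were taken from *Nmu* at chr5:76363778-76363937 (minus strand), *Vip* at chr10:5639058-5639217 (plus strand) and *Prl* at chr13:27057410-27057569 (plus strand). Capitals mark matches, on either strand, to TGACG (the core of the cAMP response element), GGTCA (the repeat unit of the oestrogen response element), ATGNATA (a core of the sites bound by the pituitary factor Pou1f1) and TATAAA (the TATA box).
Nmu: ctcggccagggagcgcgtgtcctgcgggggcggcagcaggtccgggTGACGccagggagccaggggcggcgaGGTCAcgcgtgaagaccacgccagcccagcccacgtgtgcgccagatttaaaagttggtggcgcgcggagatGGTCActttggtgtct
Vip: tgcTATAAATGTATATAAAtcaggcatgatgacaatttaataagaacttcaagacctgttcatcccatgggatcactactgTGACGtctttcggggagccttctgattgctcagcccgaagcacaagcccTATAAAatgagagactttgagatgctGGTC
Prl: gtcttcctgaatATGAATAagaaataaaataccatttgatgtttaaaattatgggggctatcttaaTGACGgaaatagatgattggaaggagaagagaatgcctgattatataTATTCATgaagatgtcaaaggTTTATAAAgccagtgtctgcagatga

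The start used for *Vip* lies within the annotated span of the gene. The final capitals of the *Vip* stretch are a GGTCA whose last base is the first base after the printed end. In *Vip* an ATGTATA overlaps a TATAAA on each side, and in *Prl* the run TTTATAAA is a TATA box read on both strands. TGACG began 114 bases before the start of *Nmu*, 79 bases before that of *Vip* and 94 bases before that of *Prl*. Windows of 300 bases around the start (250 before and 50 after) were on hand for 8 of the 10 members, those of *Angpt1* and *Edil3* being the exceptions. Within these windows TGACG was present in 5 of the 8 genes (*Gal*, *Nmu*, *Prl*, *Th* and *Vip*), where 20.8% of all 32851 windows held it. GGTCA was also present in 5 (*Drd2*, *Esr1*, *Gal*, *Nmu* and *Vip*), against 40.5% of all windows. TATAAA was present in *Pgr*, *Prl* and *Vip*, against 13.6% of all windows, and ATGNATA in *Prl* and *Vip*, against 8.84%. The full cAMP response element TGACGTCA, which contains TGACG on each strand, was found in *Th* alone (1.79% of all windows), and the full palindromic oestrogen response element in no member (0.07%). These are matches of letters and say nothing on binding.

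*Prl* (chr13:27057570-27065204, GRCm38.p6) was measured by 1 probe, ILMN_2685995, which was detected on every array. On the normalised log2 scale it lay at a lowest value of 15.03, a median of 15.34 and a highest value of 15.51 in the 8 Pregnant glands, against 15.51, 15.47, 15.42 and 15.49 in the 4 Non-pregnant glands. The groups overlapped, although 6 of the 8 Pregnant arrays lay below every Non-pregnant array. The 8 Pregnant glands had a mean of 15.31 ± 0.17 (SD) and the 4 Non-pregnant glands one of 15.47 ± 0.04, a log2 change of -0.16 ± 0.10 (SE) with a limma adjusted p of 0.458. The 95% interval of the change ran from 0.77-fold to 1.04-fold. It bounds the probe signal and not the amount of *Prl* RNA, because bright bead signals can compress differences. Compression of this probe was not tested.

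The *Prl* probe lies at the top of the signal range of the array. In raw intensity it ranked between 2nd and 31st of the 45281 probes on single arrays and 9th by mean. As a share of the brightest probe of the same array, its raw signal was 87.3% ± 7.51 (SD, n = 8) over Pregnant glands and 96.4% ± 3.84 (SD, n = 4) over Non-pregnant glands. The difference of -9.06 percentage points did not pass a two-sided exact permutation test over all 495 splits of the arrays (p = 0.0606, smallest possible 0.00202). Without Pregnant replicate 3, whose *Prl* signal was 99.7% of the brightest probe, the difference was -10.8 points (exact p = 0.0152). Without Non-pregnant replicate 3, at 91.0%, it was also -10.8 points (exact p = 0.0485). With any other single array left out, the exact p lay between 0.0545 and 0.115. The raw log2 difference of *Prl*, taken without the brightest probe, was -0.11 (exact permutation p = 0.113). Quantile normalisation gives each rank a single value, so that 2 arrays on which *Prl* holds one rank receive equal values. With median scaling in its place the change of *Prl* was -0.28 (limma adjusted p = 0.179). The SD of *Prl* stood at the 34.2nd percentile of all tested probes in Pregnant glands and at the 0.87th in Non-pregnant glands.

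**Figure D1:**
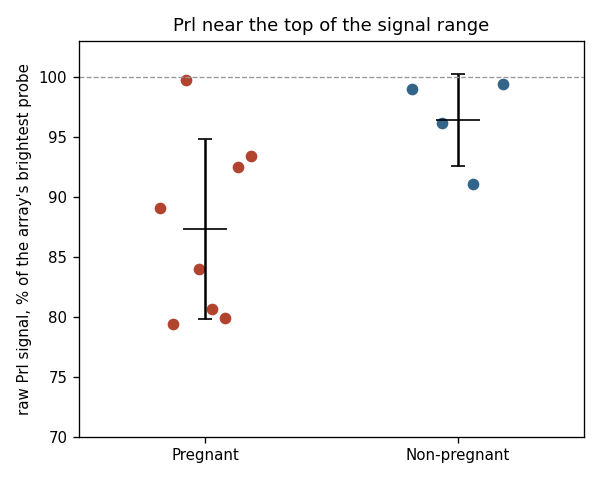
Raw *Prl* signal on each array as a percent of the brightest probe of that array (vertical axis, starting at 70%), for 8 Pregnant and 4 Non-pregnant pituitaries, with points for arrays, bars for the mean and SD and a dashed line at 100%. The Pregnant arrays spread from 79.4% to 99.7% and the Non-pregnant arrays from 91.0% to 99.4%.

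The receptor through which dopamine restrains the lactotroph, *Drd2* (chr9:49340360-49408177), was read by probe ILMN_2988228. Its normalised log2 intensity was lowest at 10.05, median 10.50 and highest at 10.77 in Pregnant glands, against 10.56, 10.79, 10.80 and 10.64 in Non-pregnant glands. The groups overlapped, with 4 of the 8 Pregnant arrays below all Non-pregnant arrays. The Pregnant mean was 10.49 ± 0.24 (SD, n = 8) and the Non-pregnant mean 10.70 ± 0.12 (SD, n = 4), and the change of -0.21 ± 0.13 (SE) was not called (limma adjusted p = 0.436, 95% interval from 0.71-fold to 1.05-fold).

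*Th* (chr7:142892779-142899995) encodes tyrosine hydroxylase, the rate-limiting enzyme of dopamine synthesis and a marker of dopamine neurons. Its probe ILMN_1222014 gave raw intensities of 124.6 to 147.9 in Pregnant and 126.1 to 134.1 in Non-pregnant glands. The smallest detection p on any array was 0.331, so that the probe was not above background on any of the 12 arrays and has no fold change. Among the genes listed for dopamine synthesis, storage, transport and breakdown, 6 were tested, and 5 besides *Th* did not pass the detection filter (*Slc18a1*, *Slc18a2*, *Slc6a3*, *Maoa* and *Dbh*).

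Of those 6 tested genes 1 was called higher, *Ddc*, which encodes the decarboxylase that turns L-DOPA into dopamine. Its brightest probe ILMN_1260450 lay at a lowest value of 9.13, a median of 9.57 and a highest value of 9.81 in Pregnant glands, against 8.81, 8.95, 8.73 and 8.35 in Non-pregnant glands. The groups did not overlap, as was so for the 1.51% of all tested probes that were higher in Pregnant glands. The log2 change was 0.79 ± 0.15 (SE), or 1.73-fold (limma adjusted p = 0.0114). A dimmer *Ddc* probe, ILMN_2628647, rose by 0.61 ± 0.13 (adjusted p = 0.0213), and a still dimmer one, ILMN_1229396, changed by -0.08 with an adjusted p of 0.849. The call of ILMN_2628647 was lost without Non-pregnant replicate 3 (adjusted p = 0.103). Averaging the 3 probes before the fit gave 0.44, with the call lost (adjusted p = 0.0922). Both called probes also lost the call with the replicate number as a block (adjusted p = 0.104 for ILMN_1260450 and 0.164 for ILMN_2628647).

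No gene was called among the 8 tested of the 15 genes for dopamine receptors and their G protein targets. The 2 with the smallest p were *Gnaz*, an inhibitory G protein subunit, and *Kcnj3*, a subunit of the potassium channel that such receptors open. *Gnaz* averaged 10.72 ± 0.18 (SD) in Pregnant and 11.13 ± 0.30 in Non-pregnant glands, a log2 change of -0.40 ± 0.13 (SE, limma adjusted p = 0.125). *Kcnj3* averaged 6.66 ± 0.26 in Pregnant and 6.97 ± 0.23 in Non-pregnant glands, a change of -0.31 ± 0.15 (adjusted p = 0.30).

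Both receptors for ovarian steroids were detected by 1 probe each and neither was called. The oestrogen receptor alpha gene *Esr1* (chr10:4611989-5005633), through which oestrogen acts on lactotrophs, was measured by ILMN_2726412, while its other 3 probes failed the filter, with raw intensities between 117.2 and 205.3. Its log2 intensity was lowest at 10.23, median 10.54 and highest at 10.88 in Pregnant glands, against 10.59, 10.58, 11.19 and 10.46 in Non-pregnant glands. Non-pregnant replicate 3 was the highest of all 12 arrays, and the other 3 lay within the Pregnant range. The change was -0.18 ± 0.15 (SE, limma adjusted p = 0.59), with an interval of 0.71-fold to 1.10-fold. Without Non-pregnant replicate 3 it was -0.01.

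The progesterone receptor gene *Pgr* (chr9:8898900-8968611) was read by ILMN_2657452, 1 of its 2 probes. Its log2 intensity was lowest at 6.19, median 6.48 and highest at 6.90 in Pregnant glands, against 6.22, 5.93, 6.31 and 7.42 in Non-pregnant glands. A single array, Non-pregnant replicate 4, lay above every other, and it was also the Non-pregnant array that stood apart on the first principal component. The change was 0.05 ± 0.22 (SE, limma adjusted p = 0.94), with an interval of 0.75-fold to 1.43-fold, and without that array it was 0.36 (adjusted p = 0.182). The Non-pregnant range of *Pgr* spanned 2.80-fold, and its SD stood at the 98.6th percentile of tested probes. Among all 8 tested genes of the 15 listed for ovarian steroid receptors and cofactors none was called. The smallest p were those of *Nrip1*, a corepressor of nuclear receptors (-0.51 ± 0.20 SE, adjusted p = 0.203), and *Pgrmc1*, a membrane progesterone receptor component (-0.26 ± 0.11, adjusted p = 0.254).

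Of the peptide members, *Vip* (chr10:5639193-5647617) encodes vasoactive intestinal peptide, a prolactin-releasing factor made in the hypothalamus and in the pituitary itself. Probe ILMN_2943387 was detected on all arrays, and the second probe of the gene, ILMN_1243637, on none (raw 127.4 to 155.6). The normalised log2 intensities of the 8 Pregnant glands were 8.64, 7.88, 8.45, 8.51, 8.59, 8.83, 8.60 and 8.98, against 7.60, 7.86, 7.60 and 8.24 in Non-pregnant glands. The groups overlapped through 1 array, Pregnant replicate 2, which was lower than Non-pregnant replicate 4, while the other 7 Pregnant arrays were above all Non-pregnant arrays.

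The Pregnant mean of *Vip* was 8.56 ± 0.32 (SD, n = 8) and its Non-pregnant mean 7.82 ± 0.30 (SD, n = 4). The log2 change was 0.74 ± 0.17 (SE), or 1.67-fold with a 95% interval of 1.29-fold to 2.16-fold (limma adjusted p = 0.0387). On the raw scale the probe read 350.7 to 726.4 in Pregnant glands, against 289.3, 337.1, 306.7 and 400.9 in Non-pregnant glands. The raw log2 difference of 0.66 had a two-sided exact permutation p of 0.00606. It was not adjusted for the raw array medians, which were higher in Pregnant (151.1 to 179.6) than in Non-pregnant glands (144.8 to 147.6). As a percent of the brightest probe, *Vip* was 1.11% in Pregnant and 0.71% in Non-pregnant glands (exact permutation p = 0.0141). The direction was the same with each array left out, but the adjusted p then lay between 0.0512 and 0.149 for 9 of the 12 arrays (Pregnant replicates 3 to 8 and Non-pregnant replicates 1 to 3). The call was likewise lost with median scaling in place of quantile normalisation (0.70, adjusted p = 0.078) and with no detection filter (adjusted p = 0.0761). It was also lost with the replicate number as a block (0.55, adjusted p = 0.251). With no background correction the change of *Vip* was 0.515, and in the processed table of the authors 0.522, both still called.

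*Nmu* (chr5:76333495-76363777) encodes neuromedin U, a peptide found in the hypothalamus and the anterior pituitary that acts through the receptors Nmur1 and Nmur2. Probe ILMN_1240160 gave 8.06, 8.67, 8.69, 8.04, 8.12, 8.30, 8.73 and 8.21 in the 8 Pregnant glands, against 9.70, 9.03, 9.12 and 9.40 in the 4 Non-pregnant glands. Every Pregnant array lay below every Non-pregnant array. *Nmu* was the only member whose groups did not overlap, 1 of 10 member probes, while 1.43% of all tested probes were lower in Pregnant glands without overlap (2.95% in either direction).

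*Nmu* had a mean of 8.35 ± 0.30 (SD) over the 8 Pregnant glands and of 9.31 ± 0.30 (SD) over the 4 Non-pregnant glands. The log2 change was -0.96 ± 0.17 (SE), or 1.94-fold lower, with a 95% interval of 0.40-fold to 0.66-fold (limma adjusted p = 0.00674). In raw intensity the probe read 366.5 to 538.9 in Pregnant glands, against 855.3, 615.0, 665.6 and 730.5 in Non-pregnant glands. The raw log2 difference was -0.60, with an exact permutation p of 0.00202, the smallest that the design can give. With no background correction the change of *Nmu* was -0.746, and in the processed table of the authors -0.755, both still called. *Nmu* was called lower with each of the 12 arrays left out, with changes of -1.05 to -0.83. With the replicate number as a block its call was lost (-0.95, limma adjusted p = 0.116).

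**Figure D2:**
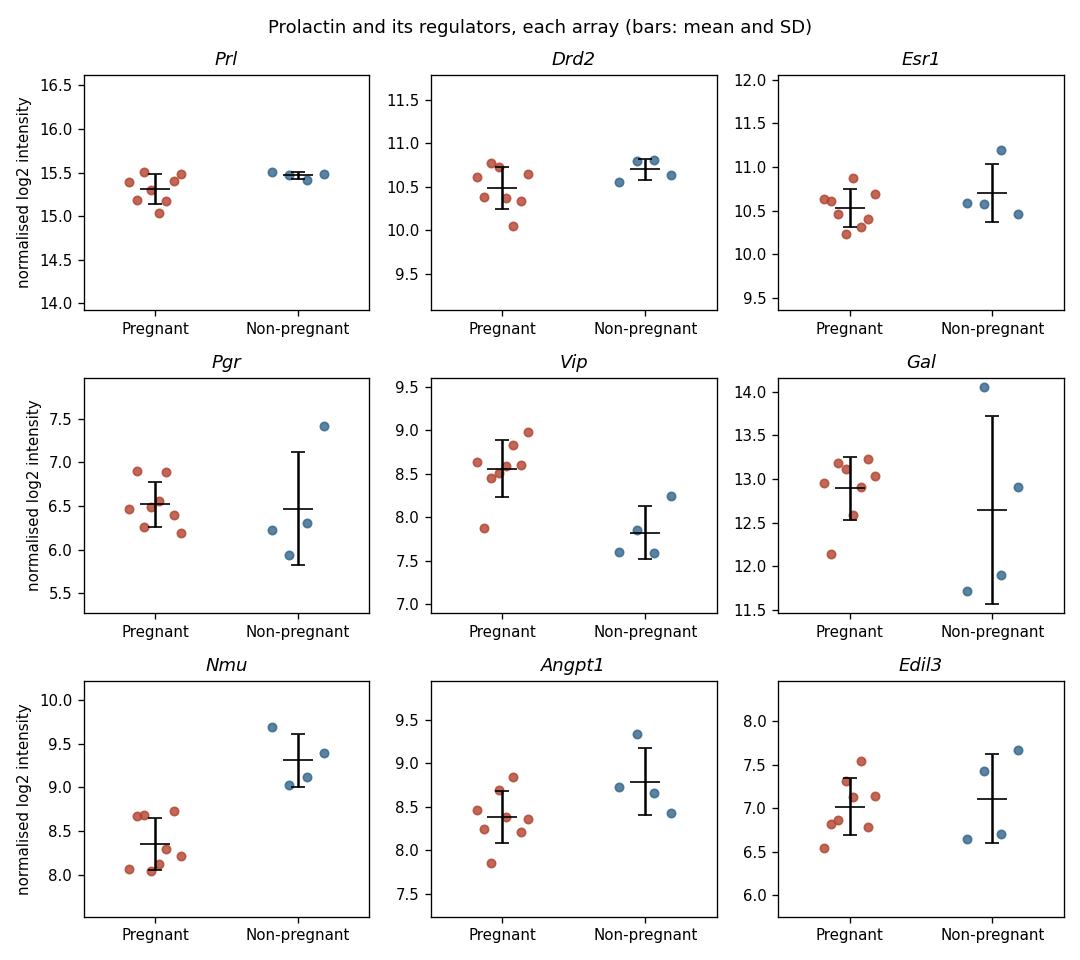
Normalised log2 intensity of the 9 detected members on each array (vertical axes, all spanning the same range), for Pregnant and Non-pregnant pituitaries, with points for arrays and bars for the mean and SD. The *Nmu* groups are apart, the *Vip* groups meet through 1 Pregnant array at 7.88, and *Gal* and *Pgr* are widest among the 4 Non-pregnant arrays.

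*Gal* (chr19:3409915-3414544) encodes galanin, a peptide that lactotrophs themselves make under oestrogen in rats. Its probe ILMN_2776034 was lowest at 12.13, median 12.99 and highest at 13.23 in Pregnant glands, against 11.71, 14.05, 11.90 and 12.90 in Non-pregnant glands. The highest and the lowest arrays of all 12 were both Non-pregnant. They differed by 5.05-fold, while the Pregnant arrays spanned 2.14-fold, and the Non-pregnant SD of 1.08 stood at the 99.9th percentile of tested probes. The change was 0.25 ± 0.34 (SE, limma adjusted p = 0.761), and its interval of 0.72-fold to 1.96-fold holds changes larger than that of *Vip*. Without Non-pregnant replicate 2 the change was 0.72 (adjusted p = 0.185), and without Non-pregnant replicate 1 it was -0.06 (adjusted p = 0.963).

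Of 21 peptide ligands listed as acting on lactotrophs 7 were tested, and *Vip* and *Nmu* were the called ones. Of the 27 receptors of these peptides 11 were tested and none was called. The receptors of neuromedin U, *Nmur1* and *Nmur2*, those of galanin, *Galr1*, *Galr2* and *Galr3*, and the VIP receptor *Vipr1* did not pass the detection filter, and *Vipr2* and the prolactin receptor *Prlr* were not analysed here. The smallest p belonged to *Trhr*, the receptor for thyrotrophin-releasing hormone, and *Sstr2*, a somatostatin receptor. *Trhr* averaged 8.24 ± 0.31 (SD) in Pregnant and 7.70 ± 0.13 in Non-pregnant glands, a log2 change of 0.54 ± 0.15 (SE, limma adjusted p = 0.0758). *Sstr2* averaged 7.33 ± 0.60 in Pregnant and 8.37 ± 0.53 in Non-pregnant glands, a change of -1.04 ± 0.30 (adjusted p = 0.0791).

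*Angpt1* (chr15:42424667-42676977) encodes angiopoietin 1, the ligand that stabilises vessels through the receptor Tek. Of its 3 probes ILMN_1226520 was kept, with a lowest value of 7.85, a median of 8.38 and a highest value of 8.84 in Pregnant glands, against 8.73, 9.33, 8.66 and 8.43 in Non-pregnant glands. The groups overlapped, with 5 of 8 Pregnant arrays below all Non-pregnant arrays. The change was -0.41 ± 0.18 (SE), with an interval of 0.58-fold to 0.98-fold. It had an unadjusted p of 0.0391 and was not called after adjustment (limma adjusted p = 0.263), where 16.9% of all probes tested had an unadjusted p under 0.05. Without Non-pregnant replicate 2, its highest array, the change was -0.23 (adjusted p = 0.597). With no background correction the change of *Angpt1* was -0.31 (limma adjusted p = 0.221). Its raw log2 difference was -0.17 (exact permutation p = 0.345).

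*Edil3* (chr13:88821472-89323225) encodes a secreted matrix protein that binds integrins on endothelial cells. Of its 9 probes 2 were kept. ILMN_3124083 was lowest at 6.55, median 7.00 and highest at 7.54 in Pregnant glands, against 6.64, 7.43, 6.70 and 7.67 in Non-pregnant glands. Both groups covered nearly the same range, and the change was -0.09 ± 0.21 (SE, limma adjusted p = 0.865). ILMN_1213628 was detected on 3 Pregnant and 2 Non-pregnant arrays and changed by 0.12 ± 0.16 (adjusted p = 0.761). Probe ILMN_2559440 was above background on 0 Pregnant and 3 Non-pregnant arrays and lay just outside the rule, its raw intensity being 154.4 to 194.8 in Pregnant and 165.9 to 182.9 in Non-pregnant glands. When no detection filter was applied this probe was called lower (-0.42, adjusted p = 0.0429). Probe ILMN_2580261, also just outside with 2 Pregnant and 1 Non-pregnant arrays above background, read 158.4 to 209.7 in Pregnant and 153.3 to 168.8 in Non-pregnant glands and was not called without the filter (0.05, adjusted p = 0.908).

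Of the 15 genes listed as angiopoietin and Edil3 partners 13 were tested and none was called. The smallest p was that of *Tek*, the Angpt1 receptor, which averaged 8.62 ± 0.30 (SD) in Pregnant and 8.98 ± 0.18 in Non-pregnant glands (-0.35 ± 0.15 SE, limma adjusted p = 0.253).

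Among 15 listed transcription factors of the *Prl* gene 10 were tested, and *Pou1f1* was not analysed here. The ETS factor gene *Etv5* rose. Its brighter probe ILMN_1235329 was lowest at 7.32, median 7.78 and highest at 8.23 in Pregnant glands, against 6.98, 7.12, 6.98 and 7.44 in Non-pregnant glands (0.66 ± 0.16 SE, limma adjusted p = 0.0445). The dimmer probe ILMN_2938047 rose by 0.82 ± 0.15 (adjusted p = 0.00989), with no overlap between the groups. The call was lost for the brighter probe without any 1 of 9 arrays (Pregnant replicates 3 to 8 and Non-pregnant replicates 1 to 3, adjusted p up to 0.157), and for the dimmer probe without Non-pregnant replicate 1 (adjusted p = 0.0505). With no background correction the changes were 0.39 (brighter probe) and 0.39 (dimmer probe), and in the processed table of the authors 0.39 and 0.40, all still called. The brighter probe lost its call with no detection filter (adjusted p = 0.0817).

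*Lhx3*, a LIM homeodomain factor needed to form the anterior lobe, fell by 2 of its 4 tested probes. ILMN_2784382 was lowest at 9.50, median 9.56 and highest at 9.68 in Pregnant glands, against 9.83, 10.14, 9.91 and 10.11 in Non-pregnant glands (-0.42 ± 0.09 SE, limma adjusted p = 0.0219). ILMN_2505040 changed by -0.61 ± 0.15 (adjusted p = 0.0447). The brightest *Lhx3* probe, ILMN_1260455, was not called (-0.34 ± 0.11, adjusted p = 0.12), although its groups did not overlap, and neither was the dimmest, ILMN_1236482. The call of ILMN_2784382 was lost when Non-pregnant replicate 2 (adjusted p = 0.0667) or 3 (0.0585) was left out. That of ILMN_2505040 was lost without any 1 of 9 arrays (all but Pregnant replicates 2 and 7 and Non-pregnant replicate 4, adjusted p up to 0.159), with median scaling (0.0577) and with no detection filter (0.0778).

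**Figure D3:**
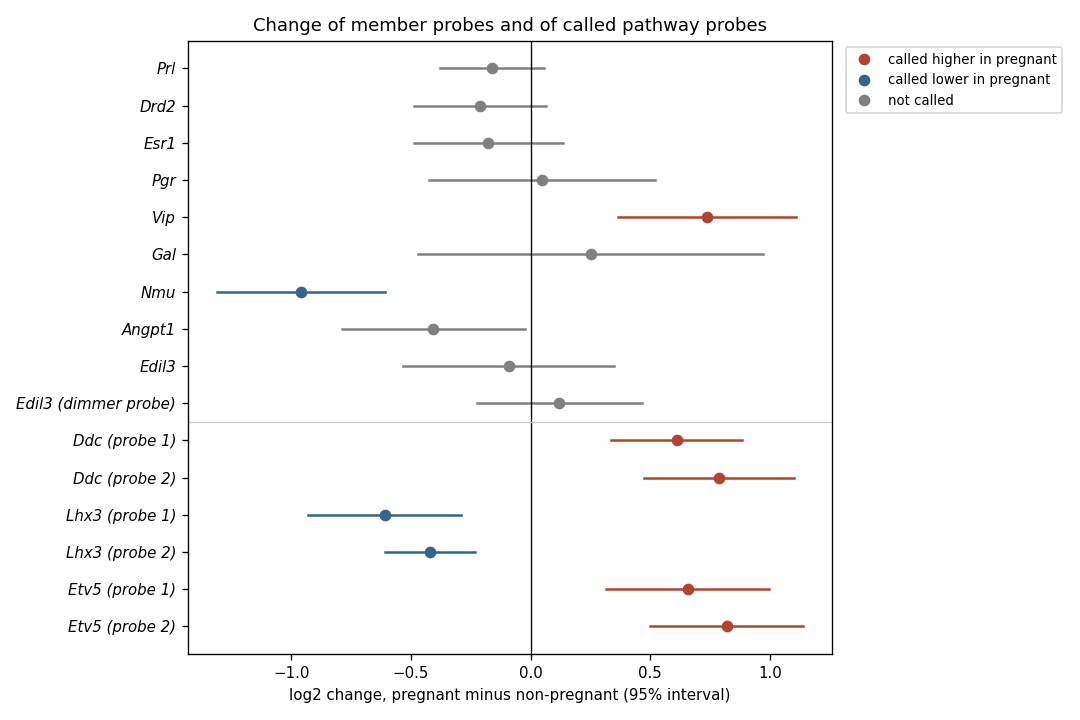
Log2 change, Pregnant minus Non-pregnant, of the 10 member probes (above the line) and of the called probes of other listed pathway genes (below it), with points for the limma estimate and lines for its 95% interval. Among members the intervals of *Vip*, *Nmu* and *Angpt1* lie off 0, and of these *Vip* and *Nmu* were called.

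Over the 55 tested genes of 138 on these lists, members left out, 2 were called higher and 1 lower. Their median log2 change was -0.10, with 40 below 0 and 15 above. Over the 10802 named genes tested the median was -0.01, with 5507 below 0 and 5295 above. Of those 10802 genes 163 were called higher and 169 lower. The 9 tested members had a median log2 change of -0.16. None of the 23 other prolactin family genes on the array, most of which are placental genes, passed the detection filter.

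The members were also compared in how they varied among arrays of a group. After each group's mean was subtracted, and across 12 arrays with no test, the closest pairs of the 36 were *Nmu* with *Angpt1* at a Pearson correlation of -0.63, *Vip* with *Edil3* at 0.59 and *Prl* with *Drd2* at 0.56. *Vip* and *Nmu* correlated at -0.36. All values of an array share its hybridisation and normalisation.

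Of 10801 other named genes, those whose deviations were most like *Prl* were *Cipc*, *Slc25a15* and *Ccdc84* (Pearson 0.88 to 0.887). For *Cipc* the correlation was 0.931 over the Pregnant arrays and -0.463 over the Non-pregnant ones, where *Prl* hardly varied. The genes most like *Drd2* were *Scnn1a*, *Fam102a* and *Rhog* (0.869 to 0.937), and *Scnn1a* followed it in both groups (0.944 in Pregnant and 0.954 in Non-pregnant glands). *Esr1* was nearest to *Lamp2*, *Rassf8* and *Zbtb14* (0.856 to 0.891), and *Pgr* to *Rybp*, *Tex2* and *Riox1* (0.897 to 0.951). *Vip* was nearest to *Cttn*, *Gpkow* and *Rnf41* (0.90 to 0.911), and *Nmu* to *C030006K11Rik*, *Rpl29* and *Xpo5* (0.862 to 0.898). *Gal* was nearest to *Rcn3*, *Tinagl1* and *Ift20* (0.875 to 0.907), and for *Rcn3* the correlation was 0.501 in Pregnant and 0.999 in Non-pregnant glands. *Angpt1* was nearest to *9530077C05Rik*, *Axin1* and *Igsf1* (0.869 to 0.91), and *Edil3* to *Zc3h14*, *Map9* and *Cnot11* (0.885 to 0.918). As the highest of many correlations over few arrays, these describe the arrays only.

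**Figure D4:**
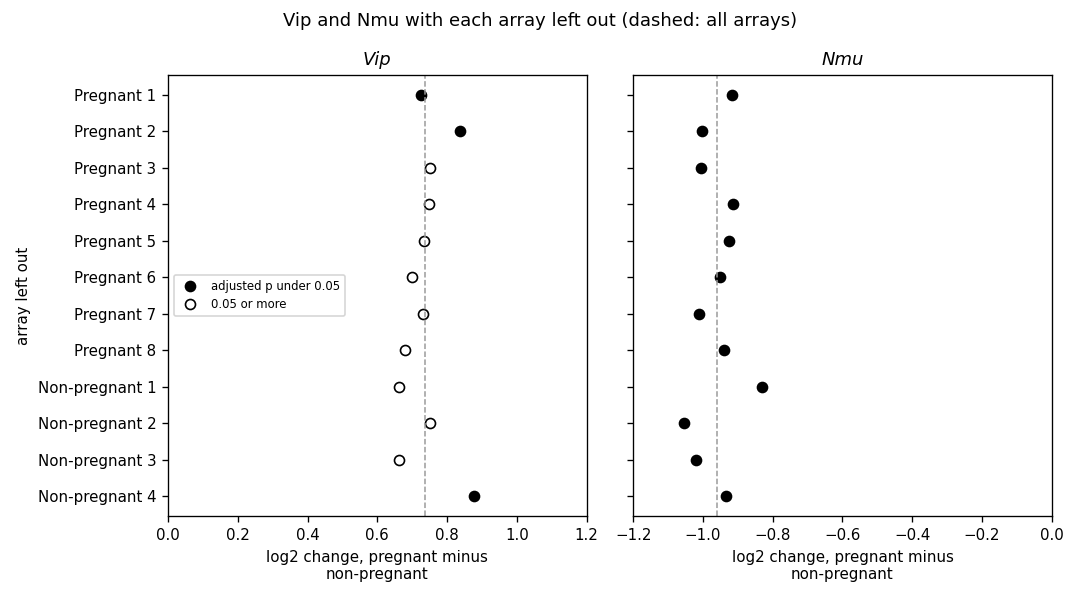
Log2 change of *Vip* and of *Nmu*, Pregnant minus Non-pregnant (horizontal axes, both of the same length), with each array left out in turn. Filled points have an adjusted p under 0.05, open points do not, and the dashed line is the change over all 12 arrays. *Nmu* stays between -1.05 and -0.83 and *Vip* between 0.66 and 0.88, with 3 filled points for *Vip*.

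Across the series 17217 to 18572 probes were detected per array. Of the lactotroph markers 5 were tested, 3 of them members, and none was called. All 5 tested red blood cell markers rose, with a summed intensity of 86866 to 131606 in Pregnant and 33139 to 42165 in Non-pregnant glands. Of 7 tested gonadotroph markers 1, *Lhb*, fell (-0.91 ± 0.11 SE, limma adjusted p = 0.000508; list sum 36800 to 46589 in Pregnant and 47592 to 50909 in Non-pregnant glands). Of 4 tested macrophage and leukocyte markers *Lyz2* fell by 1 of its 2 probes (-1.05 ± 0.24, adjusted p = 0.0337; list sum 968 to 1529 in Pregnant and 1194 to 2363 in Non-pregnant glands). The part of these markers in the changes of *Vip* and *Nmu* was not tested. Of the 6 hypothalamic neuron markers 2, *Avp* and *Oxt*, were tested and not called (summed 389 to 647 in Pregnant and 476 to 774 in Non-pregnant glands), and *Th*, *Slc6a3*, *Slc18a2* and *Snap25* did not pass the filter. On the first principal component, which held 24.5% of the variance, Non-pregnant replicate 4 lay at 0.26, with the other Non-pregnant arrays at -32.8 to -21.3 and the Pregnant arrays at -7.29 to 20.6. Without this array *Vip* changed by 0.88 and *Nmu* by -0.93, and both were called.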

How the data were processed

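Total RNA of each whole pituitary went onto 1 MouseWG-6 v2.0 bead array. For 45281 probes and 12 arrays the authors deposited a linear signal intensity, not background-subtracted, with its detection p-value. The deposited detection p-value compares a probe with negative control beads. They also deposited a processed table of linear intensity made with lumi (quantile normalisation and variance stabilisation), of a version not given in sources used here, which was used as an alternative.

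Raw intensity was background-corrected by normexp (limma 3.58.1, R 4.3.3, controls inferred from detection p, offset 16), quantile-normalised on the log2 scale and filtered to the 18626 probes with detection p under 0.05 on 4 or more arrays. Groups were compared with lmFit and eBayes, as a two-sided test adjusted over the kept probes by Benjamini-Hochberg, and changes are Pregnant minus Non-pregnant. Only the fit and the call were tested on simulated data, drawn as independent values on the normalised scale. Background correction, normalisation and the filter were not simulated. Symbols came from the platform annotation (34885 probes with 1 gene, 18 with several, 10378 with none), of which 34807 were found by gene ID in RefSeq GRCm38.p6. Gene spans and promoter windows are those of RefSeq. The place of each probe within its gene was not used here. No saturation flag was used here, and a probe's percent of the brightest signal stands in its place.

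The named genes are all members, each by its brightest kept probe (others where calls or signs differ), every called gene of a pathway list or else its 2 of smallest p, and the 3 genes most like each member. Members and lists were chosen with earlier results of these data known. Animals were treated as independent, although they shared 4 litters across both groups, and precision is limited by how few arrays there are. The alternatives tried were background correction, normalisation, the processed table, the detection filter, the variance model, array weights, averaged probes, each array left out and the replicate number as a block.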

Additional observations from a re-analysis of the deposited data

Results flagged for a closer look

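Among 32 groups of arrays checked for a single array far from the rest (8 Pregnant or 4 Non-pregnant values of each probe), 1 was picked out, and chance alone picks out about 1 in 20. It was the *Lhx3* probe ILMN_2505040 in Pregnant replicate 2, the lowest of the 8 Pregnant arrays. Its normalised log2 intensity was 8.41 and that of the next lowest array was 8.98, a gap of 0.538 of the range of the group. Without this array the probe changed by -0.52 and kept its call. No comparison of the effect between tissues, times or other strata was possible in this design.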

How the results depend on the processing

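The numbering of arrays 1 to 4 is shared by both groups in the labels. The deviations of same-numbered arrays had small positive correlations (0.163, 0.0602, 0.0145 and 0.203), and 2 of 4 Non-pregnant arrays correlated best with their own number. With only 4 numbers to compare, these values cannot decide whether same-numbered arrays are pairs. The main fit treats the arrays as unpaired, and the fit with the block shows what pairing by number would change. With the replicate number as a block, which leaves Pregnant arrays 5 to 8 without a partner, *Nmu* changed by -0.95 (adjusted p = 0.116) and *Vip* by 0.55 (adjusted p = 0.251). The block gave 0 members higher and 0 lower, 1 pathway gene higher, and 86 probes higher and 41 lower over all genes. Calls were also lost for both *Ddc* probes, for *Lhx3* ILMN_2505040 (adjusted p = 0.0729) and ILMN_2784382 (0.177), and for *Etv5* ILMN_1235329 (0.138). A slide block was not run because no source used here gives the slide.

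The count of members called higher was also 0 with median scaling and with no detection filter, and 0 to 1 with each array left out. Members called lower numbered 2 with no detection filter and 1 with each array left out. Pathway genes called higher numbered 1 with probes averaged and 2 to 3 with each array left out, and those called lower 7 with array weights and 0 to 3. Over all probes, array weights called 742 higher and 835 lower, and a variance trend with robust estimation called 308 lower. With each array left out, 89 to 542 were called higher and 52 to 588 lower. The counts without Non-pregnant replicate 4 were 542 and 588, without Non-pregnant replicate 3 89 and 52, and without Non-pregnant replicate 1 111 and 63. Without Non-pregnant replicate 2 or Pregnant replicate 7, 132 or 123 were called lower. The *Prl* percent difference lay between -10.842 and -7.932 points.

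The sign of *Pgr* turned without Pregnant replicate 2 (-0.007) or 6 (-0.004) and without Non-pregnant replicate 1 (-0.035), 2 (-0.131) or 3 (-0.007), within a range of -0.131 to 0.363. *Gal* turned to -0.058 without Non-pregnant replicate 1, in a range up to 0.723. *Edil3* ILMN_3124083 turned to 0.129 with array weights, 0.014 with probes averaged, 0.014 without Non-pregnant replicate 2 and 0.094 without Non-pregnant replicate 4, with -0.249 as its lowest value. *Nmu* kept its call in 20 of 21 alternatives and *Vip* in 9 of 21, and *Prl*, *Drd2*, *Esr1* and *Angpt1* kept their direction without a call in all 21. With array weights *Esr1* changed by -0.37 and *Gal* by 0.59, neither called. The cause of these shifts was not tested.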
